A study of Homo sapiens with 20 samples.

Results

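The genes described here are 10 feedback inhibitors of the RAS-ERK pathway: the dual-specificity phosphatases DUSP1, DUSP2, DUSP4, DUSP5 and DUSP6, the Sprouty genes SPRY1, SPRY2 and SPRY4, and the Sprouty-related genes SPRED1 and SPRED2. They were taken by name, and each was represented by the GENCODE transcript with the most reads over all libraries, out of 19617 genes represented in this way. The cells were MM1.S, a human multiple myeloma cell line labelled as wild type, so that every result is from 1 line. The 6 groups of 3 libraries held cells treated with dCBP-30 at 10 nM, a bifunctional degrader of the acetyltransferases CBP and p300, and harvested after 2, 6 or 24 h, with the vehicle DMSO as the control at each time. All 18 of these libraries were made from cells given the uridine analogue 4sU for a short time before harvest, followed by alkylation of the RNA and 3′ end sequencing (SLAM-seq). An incorporated 4sU is read as a T-to-C change, so a read with such a change (a T>C read) was taken as newly made RNA, above a background of T>C reads that also arise without 4sU. Another 2 libraries had no 4sU, and their labels give neither a treatment time nor a dose. In the comparisons they served only as that background.

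ERK feedback genes are induced by the pathway that they restrain. DUSP1, DUSP2, DUSP4 and DUSP5 encode inducible nuclear phosphatases that remove phosphate from MAP kinases, DUSP5 being specific for ERK, and DUSP6 encodes a cytoplasmic phosphatase specific for ERK. Sprouty proteins act upstream, between receptor tyrosine kinases and RAF, and SPRED proteins bring the RAS GTPase-activating protein neurofibromin to the membrane. CBP takes its name from binding to CREB, the factor that recognises the cAMP response element (CRE), and RAS and RAF mutations that switch on ERK are common in multiple myeloma.

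Of the 10 genes, 8 matched an entry in the set of RefSeq promoters used here (GRCh38.p14). DUSP4 and DUSP5 had no entry in that set, so no window is given for them. Of the 8, 5 are printed to set genes with different courses of newly made RNA after dCBP-30 side by side. Whether promoter sequence goes with these courses was not tested. Each sequence is the 250 bases before the start site, 5′ to 3′ on the gene's strand, and capitals mark a CRE (TGACGTCA), the CRE core alone (TGACG), an AP-1 site (TGANTCA), an E-box (CACGTG) or a GC box (GGGCGG), searched on both strands. DUSP1 (chr5:172771196-172771445, minus strand) was not called lower in T>C reads at any time. DUSP2 (chr2:96145441-96145690, minus strand) was lower from 6 h. DUSP6 (chr12:89352502-89352751, minus strand), SPRED1 (chr15:38252586-38252835, plus strand) and SPRED2 (chr2:65432600-65432849, minus strand) were lower at 2 and 6 h.
DUSP1: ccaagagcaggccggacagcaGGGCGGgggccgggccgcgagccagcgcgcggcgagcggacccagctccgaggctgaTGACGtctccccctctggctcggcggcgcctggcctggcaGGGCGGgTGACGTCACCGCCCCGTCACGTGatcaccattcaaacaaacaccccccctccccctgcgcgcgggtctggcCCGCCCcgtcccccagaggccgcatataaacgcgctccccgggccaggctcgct
DUSP2: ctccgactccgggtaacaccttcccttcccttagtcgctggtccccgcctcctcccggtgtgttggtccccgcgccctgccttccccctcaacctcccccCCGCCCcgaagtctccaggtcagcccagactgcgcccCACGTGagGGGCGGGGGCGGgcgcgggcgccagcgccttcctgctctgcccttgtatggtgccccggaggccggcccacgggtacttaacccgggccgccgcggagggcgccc
DUSP6: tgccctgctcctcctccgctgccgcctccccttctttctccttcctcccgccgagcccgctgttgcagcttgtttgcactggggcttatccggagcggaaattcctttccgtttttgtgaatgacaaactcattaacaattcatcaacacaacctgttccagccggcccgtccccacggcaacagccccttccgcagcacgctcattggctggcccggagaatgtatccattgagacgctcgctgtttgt
SPRED1: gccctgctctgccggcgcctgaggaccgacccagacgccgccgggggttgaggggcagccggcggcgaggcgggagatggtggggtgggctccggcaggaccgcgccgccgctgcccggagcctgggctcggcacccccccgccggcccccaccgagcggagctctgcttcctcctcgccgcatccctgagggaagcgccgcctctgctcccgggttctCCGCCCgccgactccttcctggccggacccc
SPRED2: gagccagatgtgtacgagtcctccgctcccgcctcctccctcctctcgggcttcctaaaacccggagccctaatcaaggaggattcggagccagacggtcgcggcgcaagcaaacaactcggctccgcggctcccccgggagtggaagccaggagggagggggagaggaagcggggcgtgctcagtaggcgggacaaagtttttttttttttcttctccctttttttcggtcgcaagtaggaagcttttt
The DUSP1 window held 1 CRE, 125 bases before the start site, and 4 CRE cores, of which those at 125 and 122 bases lie inside the CRE. It also held 1 E-box, which overlaps the CRE core at 111 bases, and 4 GC boxes. The DUSP2 window held 1 E-box and 3 GC boxes, the SPRED1 window held 1 GC box, and none of these letters occurred in the DUSP6 and SPRED2 windows. Of the windows not printed, a window of SPRY1 held 2 GC boxes and a window of SPRY2 held 1 CRE core and 2 GC boxes. That of SPRY4 held 1 CRE core and 1 GC box. SPRY1, SPRY2 and SPRED2 each had other unprinted windows, at other start sites, that held none of these letters. Of 35116 RefSeq promoters of the same length, 1.65% held the CRE, 21.2% the CRE core, 6.57% the AP-1 site, 6.34% the E-box and 42.6% the GC box. GC content was 74.4% for DUSP1, 74.0% for DUSP2, 57.2% for DUSP6, 78.4% for SPRED1 and 58.8% for SPRED2.

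Reads were counted in 3′ UTRs of hg38. These were chr5:172768096-172768761 for DUSP1 (ENSG00000120129, minus strand), chr2:96143169-96143822 for DUSP2 (ENSG00000158050, minus strand), chr8:29333064-29337025 for DUSP4 (ENSG00000120875, minus strand), chr10:110510427-110511533 for DUSP5 (ENSG00000138166, plus strand) and chr12:89347235-89349253 for DUSP6 (ENSG00000139318, minus strand). The Sprouty 3′ UTRs were chr4:123402552-123403752 for SPRY1 (ENSG00000164056, plus strand), chr13:80335976-80336757 for SPRY2 (ENSG00000136158, minus strand) and chr5:142310427-142314208 for SPRY4 (ENSG00000187678, minus strand). Those of the SPRED genes were chr15:38351665-38357249 for SPRED1 (ENSG00000166068, plus strand) and chr2:65310851-65313500 for SPRED2 (ENSG00000198369, minus strand). None overlapped the counted 3′ UTR of another gene.

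The 20 libraries held 12440700 to 18729086 reads in 3′ UTRs. T>C reads made up 6.08%, 6.38% and 8.31% of reads in DMSO at 2, 6 and 24 h (means, n = 3 each), 5.54%, 4.98% and 6.38% in dCBP-30, and 0.794% and 0.809% without 4sU. At 24 h the number of T-to-C changes per T>C read was 1.47 ± 0.043 in dCBP-30 and 2.48 ± 0.025 in DMSO (SD, n = 3), whereas the 2 treatments were at 2.17 and 2.20 at 2 h. Levels below are in RPM, a reads-per-million scale on the library's total reads with TMM factors, and the median gene then differed by 0.05, -0.27 and -0.69 in T>C reads (log2, dCBP-30 over DMSO at 2, 6 and 24 h). Of the plasma cell markers, 9 of 10 were at 99.1 RPM or more in every DMSO library, led by SDC1 at 1140 to 1782 RPM, and CD27 had 20 reads over the 9 DMSO libraries. Of 10 markers of other cell types, 8 were at or under 1.01 RPM (CD3D, LYZ and EPCAM, among others, had no read), while CD3E was at 2.08 to 7.19 RPM and PECAM1 at 7.27 to 13.7 RPM.

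Expression was called where the mean of a group reached 1 RPM in total reads, which 8 of the 10 genes did. SPRY2 peaked at 0.833 RPM and SPRY4 at 0.396 RPM, with 99 and 47 reads over all 20 libraries, and neither was tested in T>C reads. SPRY2 had no read in any DMSO library at 2 h, and SPRY4 had none at 24 h, so no fold is given for either. SPRY1 was close to the limit, with a highest mean of 1.79 RPM. Under DMSO none of the 8 expressed genes was called in T>C reads at 6 or at 24 h against 2 h, where 0% and 0.00991% of 10086 genes were called lower and 0% and 2.53% higher by edgeR, and only SPRED1 reached an unadjusted p under 0.05, at 24 h (1.01, SE 0.34, adjusted p = 0.06, log2 T>C difference). The median log2 T>C difference of all tested genes was 0.05 at 6 h and 0.49 at 24 h, and that of the 8 genes 0.01 and -0.04. This comparison was run with edgeR alone.

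Newly made RNA of most feedback genes was lower within 2 h of dCBP-30. In T>C reads 5 of the 8 genes tested were called lower at 2 h (DUSP4, DUSP5, DUSP6, SPRED1 and SPRED2), 7 at 6 h (the same 5 with DUSP2 and SPRY1) and 4 at 24 h (DUSP2, DUSP4, DUSP5 and SPRY1), where a call needed an adjusted p under 0.05 in edgeR's quasi-likelihood test and a change of over 2-fold. Over all 10086 genes tested, 7.14%, 17.1% and 31.2% were called lower. The median log2 difference over the 8 genes was -3.62, -2.93 and -1.56 at the 3 times. No gene of the set was called higher at any time, against 1.66%, 2.36% and 2.17% of all genes; none reached an unadjusted p under 0.05 in that direction, and DESeq2 with size factors from total reads also called none. With size factors from T>C reads DESeq2 called 2 higher at 24 h, DUSP1 and DUSP6, in a fit that called 1022 of all genes higher and 1434 lower, against 265 and 3239 with size factors from total reads. In these bulk libraries fewer cells of a kind and less RNA per cell cannot be told apart.

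**Figure D1:**
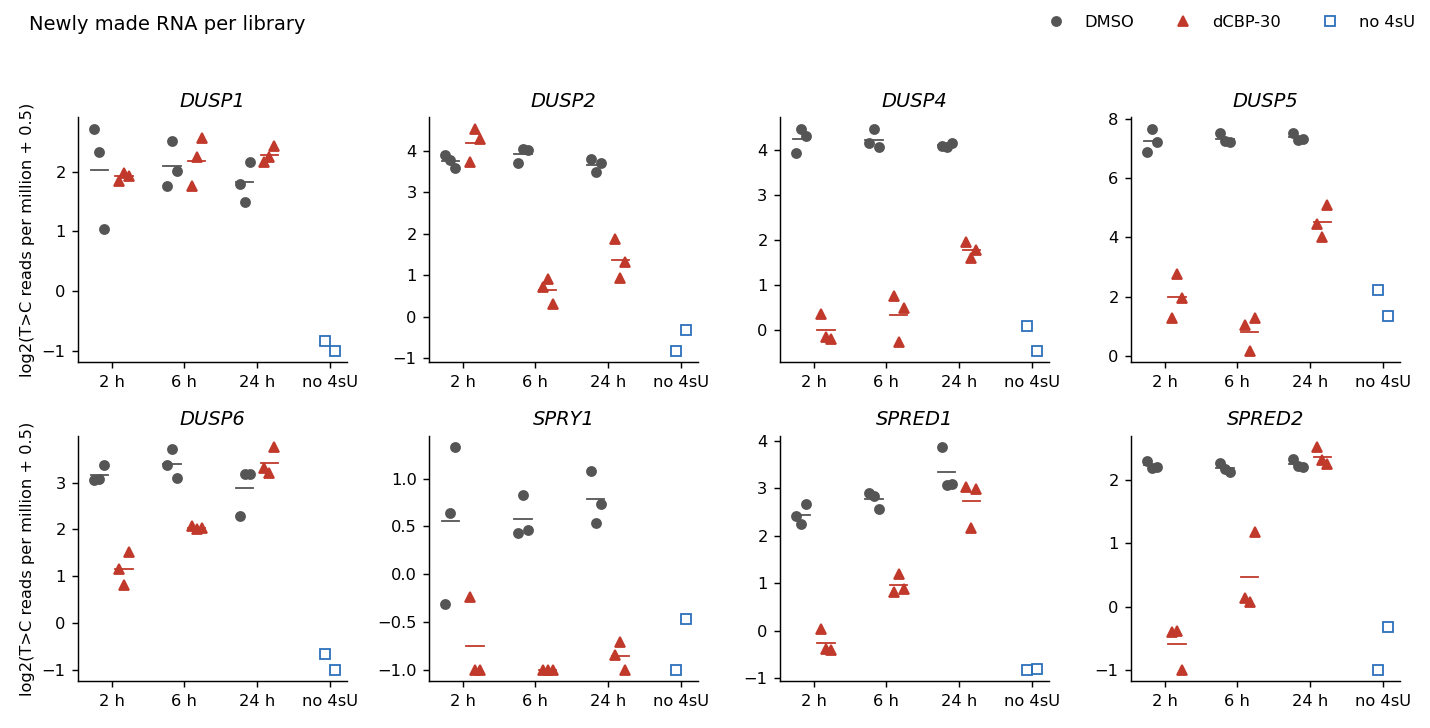
T>C reads in each library (points) on the scale log2(RPM + 0.5), with the mean of these log2 values in each group (line), for the 8 expressed genes at 2, 6 and 24 h of DMSO (circles) or dCBP-30 (triangles; n = 3 libraries per group) and in the 2 libraries without 4sU (squares). DUSP4 and DUSP5 in dCBP-30 lie below DMSO at every time, DUSP2 separates from 6 h, and DUSP1 overlaps DMSO at 2 and 6 h.

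DUSP1, a phosphatase of ERK, JNK and p38 and an immediate early gene, was not called lower at any time. Its T>C level in DMSO was 6.08, 4.51 and 1.57 RPM at 2 h, 2.90, 5.23 and 3.53 after 6 h and 2.98, 2.33 and 3.99 after 24 h (replicates 1, 2 and 3). In dCBP-30 it was 3.11, 3.43 and 3.32 RPM, 2.87, 4.22 and 5.39 RPM and 3.99, 4.23 and 4.88 RPM. The groups overlapped at 2 and 6 h, and at 24 h the dCBP-30 libraries were at or just above the highest DMSO library. The log2 differences in T>C reads were -0.30 (SE 0.40), 0.10 (SE 0.39) and 0.50 (SE 0.39, adjusted p = 0.34), none of them called by edgeR. Total reads at 24 h were 7.77, 7.53 and 8.58 RPM in dCBP-30 and 3.17, 2.50 and 4.06 RPM in DMSO. These groups did not overlap, and total DUSP1 was called higher in edgeR (1.30, SE 0.38, adjusted p = 0.0054). In T>C reads at 24 h the call depended on the scaling: relative to T>C reads DUSP1 was called higher, by 1.15.

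DUSP2, a nuclear phosphatase best known from lymphocytes, overlapped DMSO at 2 h and was first called lower at 6 h. In DMSO its T>C level was 14.5, 13.2 and 11.4 RPM at 2 h, 12.5, 16.0 and 15.8 after 6 h and 13.4, 10.8 and 12.5 after 24 h. With dCBP-30 the level was 12.7, 22.7 and 19.0 RPM at 2 h, then 1.14, 1.39 and 0.735 after 6 h and 3.17, 1.43 and 1.98 after 24 h. At 2 h the groups overlapped, with the 2 highest libraries in dCBP-30, and from 6 h every dCBP-30 library was below every DMSO library. The log2 T>C differences in edgeR were 0.48 (SE 0.25, adjusted p = 0.27) at 2 h, -3.75 (SE 0.31, adjusted p = 1.4e-15) at 6 h and -2.47 (SE 0.28, adjusted p = 9.3e-11) at 24 h. Total reads followed, with 1.38, 1.94 and 0.735 RPM in dCBP-30 against 14.6, 19.9 and 17.3 RPM in DMSO at 6 h and a log2 difference of -3.66 (SE 0.32).

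DUSP4, an inducible nuclear phosphatase related to DUSP1, fell at 2 h and stayed low. Its T>C level in DMSO was 14.9, 21.7 and 19.5 RPM at 2 h, 17.3, 21.9 and 16.3 after 6 h and 16.7, 16.3 and 17.5 after 24 h. The dCBP-30 libraries were at 0.776, 0.396 and 0.376 RPM, 1.20, 0.333 and 0.919 RPM and 3.39, 2.53 and 2.95 RPM at these times, and those without 4sU were at 0.574 and 0.223 RPM. The groups did not overlap at any time. Total DUSP4 without 4sU was 68.4 and 59.7 RPM, so that background T>C reads there came from a larger total than in dCBP-30. The log2 T>C differences in edgeR were -5.21 (SE 0.36, adjusted p = 1.2e-18), -4.51 (SE 0.33, adjusted p = 6.7e-18) and -2.51 (SE 0.28, adjusted p = 3.9e-11). Total reads at 2 h were 8.19, 11.6 and 7.32 RPM against 41.9, 75.3 and 59.1 RPM in DMSO, and the log2 differences in total reads were -2.70 (SE 0.24), -4.14 (SE 0.26) and -1.76 (SE 0.23), all called lower. The difference in total reads was thus smaller at 2 h than that in T>C reads.

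DUSP5, the nuclear phosphatase specific for ERK, had the most reads of the set (62361 over 20 libraries), and it was called lower at every time. In DMSO its T>C level was 117, 203 and 148 RPM at 2 h, 181, 153 and 147 after 6 h and 183, 157 and 159.8 after 24 h. In dCBP-30 it was 1.90, 6.20 and 3.38 RPM at 2 h, 1.56, 0.610 and 1.90 after 6 h and 21.1, 15.7 and 33.8 after 24 h. No dCBP-30 library reached a DMSO library at any time. The libraries without 4sU held 4.21 and 2.01 RPM of T>C reads, but among 465 and 371 RPM of total reads. The log2 T>C differences in edgeR were -5.32 (SE 0.43, adjusted p = 6.1e-07), -6.89 (SE 0.48, adjusted p = 5.5e-08) and -2.82 (SE 0.37, adjusted p = 2.9e-05). Total reads fell from 381, 331 and 325 RPM in DMSO to 2.75, 1.44 and 4.54 RPM in dCBP-30 at 6 h, and were 63.3, 50.2 and 78.3 RPM in dCBP-30 at 24 h. The log2 differences in total reads were -3.11 (SE 0.33), -6.90 (SE 0.42) and -2.21 (SE 0.32).

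DUSP6, the cytoplasmic phosphatase specific for ERK, was low at 2 and 6 h and no longer low at 24 h. Its T>C level in DMSO was 7.85, 7.90 and 9.93 RPM at 2 h, 9.91, 12.7 and 8.07 after 6 h and 4.34, 8.53 and 8.63 after 24 h. With dCBP-30 the level was 1.73, 1.25 and 2.38 RPM, 3.71, 3.50 and 3.55 RPM and 9.46, 8.73 and 13.0 RPM. At 2 and 6 h every dCBP-30 library was below every DMSO library, and at 24 h every one was above. The log2 T>C differences in edgeR were -2.25 (SE 0.33, adjusted p = 2.3e-07), -1.51 (SE 0.30, adjusted p = 7.2e-05) and 0.54 (SE 0.29, adjusted p = 0.14). Total reads at 24 h were 24.9, 26.0 and 27.1 RPM in dCBP-30 and 8.36, 14.1 and 12.5 RPM in DMSO. In total reads DUSP6 was called lower at 2 h by -2.10 (SE 0.25) and at 6 h by -1.23 (SE 0.23), and higher at 24 h by 1.16 (SE 0.23, adjusted p = 1.2e-04) in edgeR. The last rested on DMSO replicate 1, without which the difference was 0.96, under the 2-fold limit. In T>C reads at 24 h DUSP6 was called higher, by 1.18, when scaled by T>C reads.

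SPRY1, which acts upstream of RAF, gave few reads. In DMSO its T>C level was 0.308, 1.06 and 2.02 RPM at 2 h, 0.849, 1.27 and 0.882 after 6 h and 1.62, 0.954 and 1.16 after 24 h. The dCBP-30 libraries were at 0.345, 0 and 0 RPM, 0, 0 and 0 RPM and 0.0547, 0.110 and 0 RPM. The 3 dCBP-30 libraries at 6 h held no T>C read against 44 in DMSO, which makes SPRY1 at least 17.1-fold lower with a floor of 3 counts over the group (adjusted p = 0.0012 in edgeR). At 24 h 3 T>C reads stood against 57, a 22.8-fold ratio with a 95% counting interval of 7.41 to 114 (adjusted p = 0.0058 in edgeR). At 2 h the groups overlapped and edgeR made no call (-3.36, SE 1.26, adjusted p = 0.079), but the call appeared with DESeq2 (-3.46, adjusted p = 0.021, size factors from total reads) and in edgeR without dCBP-30 replicate 1, the only library of its group with a SPRY1 read, for which no fold is given. Total SPRY1 was called lower at 2 h in edgeR (adjusted p = 0.037) and lost that call when any 1 of the 2 h libraries other than dCBP-30 replicate 1 was left out.

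SPRED1 and SPRED2, the membrane adaptors for neurofibromin, were low at 2 h and approached DMSO by 24 h. The T>C level of SPRED1 in DMSO was 4.85, 4.23 and 5.82 RPM at 2 h, 7.01, 6.64 and 5.43 after 6 h and 14.1, 7.87 and 7.98 after 24 h. In dCBP-30 it was 0.518, 0.264 and 0.250 RPM, 1.26, 1.78 and 1.35 RPM and 7.66, 4.01 and 7.46 RPM. SPRED1 in dCBP-30 was below DMSO without overlap at each time, but at 24 h the highest dCBP-30 library was near the lowest DMSO library and edgeR made no call. The log2 T>C differences in edgeR were -3.87 (SE 0.45, adjusted p = 4.8e-10), -2.11 (SE 0.36, adjusted p = 4.2e-06) and -0.65 (SE 0.33, adjusted p = 0.11). For SPRED2 the T>C level in DMSO was 4.46, 4.09 and 4.11 RPM at 2 h, 4.32, 4.02 and 3.87 after 6 h and 4.54, 4.17 and 4.13 after 24 h. With dCBP-30 the level was 0.259, 0.264 and 0 RPM, 0.599, 0.555 and 1.78 RPM and 5.25, 4.50 and 4.29 RPM. SPRED2 groups did not overlap at 2 and 6 h and did at 24 h. The log2 T>C differences of SPRED2 in edgeR were -4.60 (SE 0.59, adjusted p = 8.3e-09), -2.06 (SE 0.46, adjusted p = 3.7e-04) and 0.13 (SE 0.42, adjusted p = 0.85).

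In total reads, the level of all RNA of a gene, 5 of 9 genes tested were called lower at 2 h (DUSP4, DUSP5, DUSP6, SPRY1 and SPRED1), 7 at 6 h (all expressed genes but DUSP1) and 3 at 24 h (DUSP2, DUSP4 and DUSP5). Over 12272 genes 1.25%, 8.67% and 16.1% were called lower by edgeR. At 24 h 2 genes were called higher, DUSP1 and DUSP6, beside 15.0% of all genes. None was called higher at 2 and 6 h by edgeR (0 at an unadjusted p under 0.05) or DESeq2, where edgeR called 0.464% and 7.47% of all genes. Total SPRED2 was 15.0, 15.8 and 12.0 RPM in dCBP-30 and 8.62, 8.47 and 6.53 RPM in DMSO at 24 h. These groups did not overlap either, and the difference of 0.86 (SE 0.25, adjusted p = 0.0056) in edgeR was under 2-fold. At 2 h total SPRED2 was 5.61, 5.35 and 3.94 RPM against 7.08, 9.03 and 8.74 RPM, a difference that was not called (-0.74, SE 0.27, adjusted p = 0.13, edgeR), in the same libraries in which its T>C level was lower. Total SPRED1 at 2 h was 4.57, 5.68 and 5.70 RPM against 18.9, 13.8 and 14.7 RPM and was called lower (-1.56, SE 0.24).

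**Figure D2:**
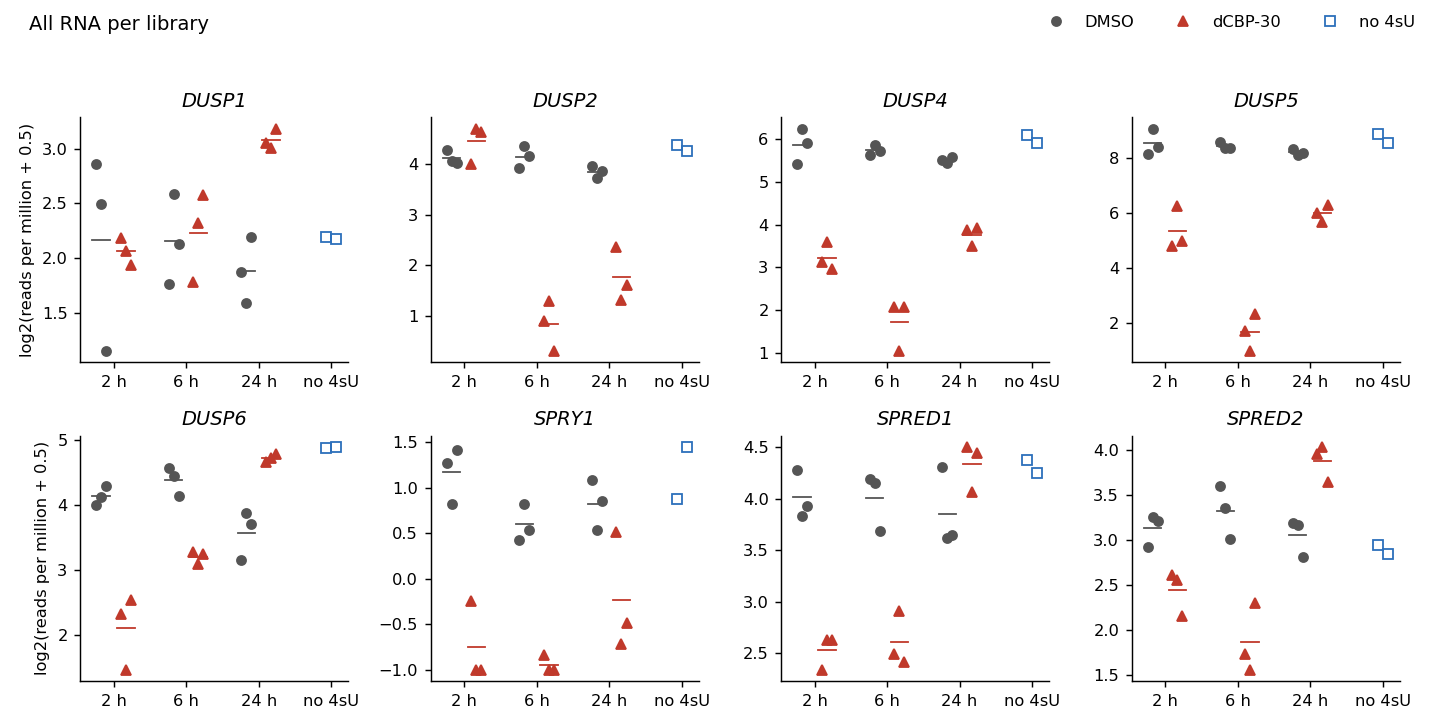
Total reads in each library (points) on the scale log2(RPM + 0.5), with the mean of these log2 values in each group (line), for the 8 expressed genes at 2, 6 and 24 h of DMSO (circles) or dCBP-30 (triangles; n = 3 libraries per group) and in the 2 libraries without 4sU (squares). DUSP1 and DUSP6 in dCBP-30 lie above DMSO at 24 h, and DUSP2, DUSP4 and DUSP5 lie below it.

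**Figure D3:**
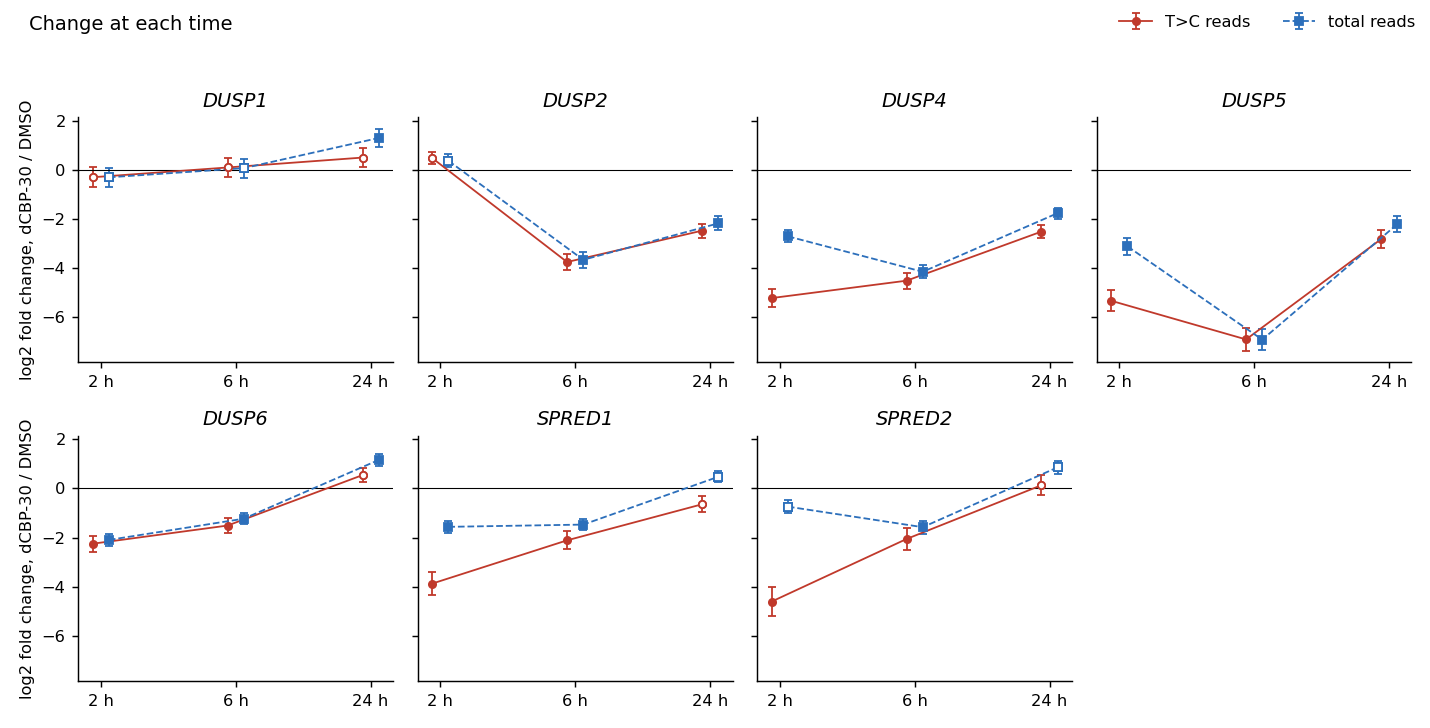
Log2 difference between dCBP-30 and DMSO (points, with SE bars) in T>C reads and in total reads at 2, 6 and 24 h for 7 genes, filled where called and open where not. At 2 h the T>C difference of DUSP4 is -5.21 and its total difference -2.70; SPRY1 is not drawn because its 6 h value is only a bound.

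The difference itself changed with time for 6 of the 8 genes. From 2 to 6 h the log2 T>C difference of DUSP2 moved by -4.23 (SE 0.40, adjusted p = 5.0e-12) in edgeR and that of SPRED2 by 2.54 (SE 0.77, adjusted p = 0.027), beside 7.35% of all genes that moved down and 0.684% that moved up past an adjusted p of 0.05. SPRED1 missed that limit (1.76, SE 0.59, adjusted p = 0.052, edgeR) and passed it when scaled by T>C reads (2.07, adjusted p = 0.023). From 2 to 24 h 5 genes moved up, DUSP4, DUSP5, DUSP6, SPRED1 and SPRED2, by 2.70, 2.50, 2.79, 3.22 and 4.73, and DUSP2 moved by -2.95 (SE 0.38, adjusted p = 9.2e-09), where the shares of all genes were 3.02% up and 23.0% down. Both changes share the 2 h libraries. The number of T-to-C changes per T>C read was lower in dCBP-30 than in DMSO at 24 h, and its part in these values was not tested.

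The labelled share is the percent of a gene's reads that are T>C reads, and the difference is a log2 odds ratio from edgeR. At 2 h 4 of 9 genes had a lower share in dCBP-30, beside 3.74% of 11792 genes. Of the 9, SPRY2 had 5 reads in dCBP-30 and 0 in DMSO at 2 h, so its share could not be compared. SPRY1 had 4 reads in dCBP-30 at 2 h. The DUSP5 share was 8.73 ± 2.1% in dCBP-30 and 41.3 ± 3.2% in DMSO (SD, n = 3), a log2 odds ratio of -2.87 (SE 0.24, adjusted p = 1.9e-09) in edgeR. DUSP4 went from 32.5 ± 3.4% to 6.01 ± 3.1% (-2.99, SE 0.43). SPRED1 went from 32.0 ± 7.1% to 6.79 ± 3.9% (-2.76, SE 0.59) and SPRED2 from 51.8 ± 9.8% to 3.18 ± 2.8% (-4.97, SE 0.82). Pooled over libraries, the shares without 4sU were 0.757% for DUSP5, 0.640% for DUSP4 and 1.97% for SPRED2 (4 of 203 reads), and that of SPRED2 in dCBP-30 at 2 h was 3.35% (7 of 209 reads). DUSP6 kept a share of 46.3 ± 8.8% against 49.8 ± 2.8%, with no call (-0.23, SE 0.51, adjusted p = 0.91, edgeR), and its unconverted reads were 2.23 ± 1.1 RPM against 8.61 ± 0.86 RPM.

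Unconverted reads, which hold RNA made before labelling and new RNA without a read change, were also lower for some genes at 2 h. Unconverted DUSP4 was 8.51 ± 2.3 RPM in dCBP-30 and 40.1 ± 13 RPM in DMSO, and unconverted DUSP5 was 40.6 ± 25 RPM and 228 ± 93 RPM (SD, n = 3). Unconverted SPRED1 was 4.97 ± 0.79 RPM against 10.8 ± 2.8 RPM. For SPRED2 the means were 4.79 ± 0.75 and 4.06 ± 1.3 RPM and differed by less than their SDs. Unconverted reads by themselves were not tested.

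At 6 h no gene of the set was called in the share by edgeR (0 at an unadjusted p under 0.05). Of all genes 3.40% were lower and 0.153% higher, and DESeq2 was not run on shares. SPRY1 had 1 read in dCBP-30 at 6 h. DUSP5 then had a share of 46.9 ± 8.3% in dCBP-30 and 46.4 ± 1.3% in DMSO, with 68 T>C reads of 146 in dCBP-30. At 24 h 4 genes were called lower in the share, DUSP1, DUSP4, DUSP5 and SPRED1, and 7 of 9 were lower at an unadjusted p under 0.05 in edgeR. DUSP2, DUSP6 and SPRED2 were not called, at mean shares of 72.5%, 39.9% and 33.1% in dCBP-30 against 87.9%, 60.4% and 55.1% in DMSO. No gene of the set was called higher (0 at an unadjusted p under 0.05), and 15.5% of all genes were called lower and 0.0848% higher. The median gene was itself lower in the share, with a log2 odds ratio of -0.81. Measured from this median, DUSP4 lay at -0.25, DUSP5 at -0.39, SPRED1 at -1.48 and DUSP1 at -3.16. The shift of DUSP4 and DUSP5 was thus mostly that of the median gene. The DUSP1 share was 54.8 ± 3.0% in dCBP-30 and 95.0 ± 2.8% in DMSO (-3.97, SE 1.11, adjusted p = 0.013, edgeR), and its unconverted reads were 3.59 ± 0.26 RPM and 0.149 ± 0.066 RPM. The DMSO side rested on few reads, with 3, 3 and 1 unconverted among 49, 42 and 56 DUSP1 reads (replicates 1, 2 and 3). The DUSP1 T>C reads carried 2.44 T-to-C changes each in dCBP-30 and 5.0 in DMSO, and the part of this in the share was not tested. SPRED1 went from 68.9 ± 3.9% to 31.5 ± 5.9% (-2.29, SE 0.51) and DUSP5 from 56.2 ± 1.1% to 36.0 ± 6.4% (-1.20, SE 0.22). The DUSP4 call (-1.06, SE 0.37, adjusted p = 0.043, edgeR) was lost whichever 24 h library was left out, and that of DUSP1 was lost without DMSO replicate 3 (-3.48, adjusted p = 0.061). Libraries of the other times were not left out for these calls.

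**Figure D4:**
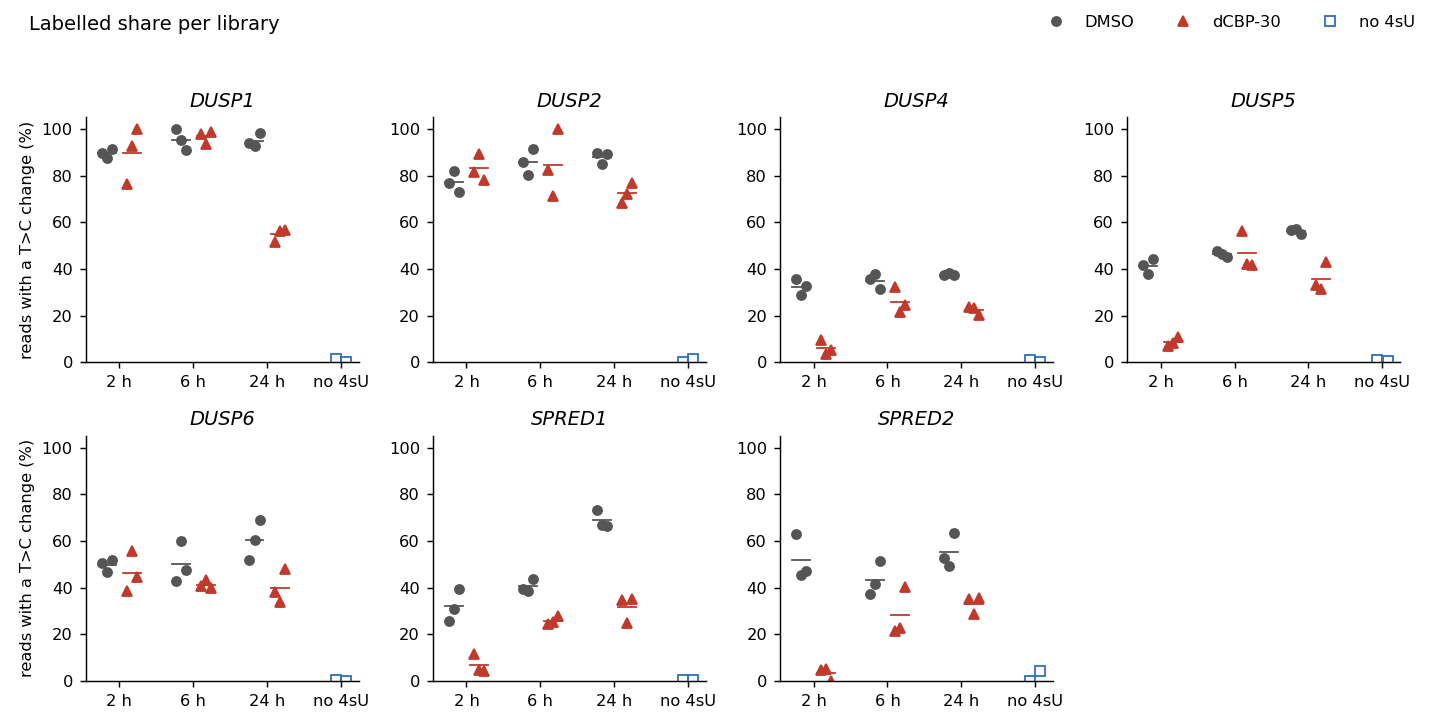
Percent of reads with a T-to-C change in each library (points) with the group mean (line) for 7 genes at 2, 6 and 24 h of DMSO (circles) or dCBP-30 (triangles; n = 3 libraries per group) and in the 2 libraries without 4sU (squares). DUSP4, DUSP5, SPRED1 and SPRED2 are at group means of 8.73% or less in dCBP-30 at 2 h, and the DUSP1 share at 24 h is 54.8% in dCBP-30 and 95.0% in DMSO.

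Genes whose T>C pattern was most like that of a member were taken by Pearson's r of log2(T>C RPM + 0.5) over the 18 labelled libraries, which share treatment groups and depth. DUSP5 was most like IRF2BPL (r = 0.992), CHMP4B (0.986) and VIM (0.985), and DUSP4 most like IL6ST (0.987), GPRIN3 (0.985) and TP53INP1 (0.983). DUSP6 was most like PPP1R15A (0.940), ZNF217 (0.917) and BTG2 (0.900). SPRED1 was nearest to UBE2H (0.968), BTG2 (0.965) and MCL1 (0.962), and SPRED2 to BTG2 (0.957), BAZ2A (0.951) and IRF1 (0.939), so that BTG2 was listed for all of DUSP6, SPRED1 and SPRED2. DUSP2 was nearest to PPIA (0.966), HSP90AB1 (0.964) and DDX21 (0.963), and SPRY1 to ADA (0.922), TXNDC11 (0.920) and SLC1A4 (0.918). Within the set, r was 0.964 for DUSP4 and DUSP5, 0.938 for SPRED1 and SPRED2, and 0.013 for DUSP2 and SPRED2.

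Of 10 other MAP kinase phosphatases and Sprouty relatives 6 were tested in T>C reads. None was called at 2 h in either direction by edgeR, where 2 were lower at an unadjusted p under 0.05, nor by DESeq2. The same 2 genes were called lower at 6 and 24 h, DUSP22 at -1.82 (SE 0.31) and -1.65 (SE 0.30), and DUSP7, a cytoplasmic ERK phosphatase related to DUSP6, at -1.15 (SE 0.31) and -2.20 (SE 0.33). None was called higher then, though 1 was higher at an unadjusted p under 0.05 at each time. The list's median log2 T>C difference was -0.07, -0.23 and -0.06. Of all genes 17.1% and 31.2% were called lower at 6 and 24 h by edgeR. Scaled by T>C size factors, DESeq2 made a call in each direction at 6 h (1175 lower and 710 higher over all genes), and at 24 h it put 3 genes higher and 1 lower.

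Of the RAS-ERK core pathway 22 of 23 genes were tested. At 2 h 4 were called lower and none higher (1 at an unadjusted p under 0.05, and none in DESeq2), with GAB1, a docking protein of receptor kinases, at -3.58 (SE 0.40, adjusted p = 8.5e-11) in edgeR. At 6 h 4 were lower and none higher (none at an unadjusted p under 0.05 and none in DESeq2), with RASA2, a RAS GTPase-activating protein, at -1.63 (SE 0.30) and GAB1 at -1.81 (SE 0.34). At 24 h 3 were lower, among them the adaptor SHC1 at -1.38 (SE 0.26) and RASA2 at -1.15 (SE 0.28), and 2 were higher, the ERK-activated kinase RPS6KA2 at 2.48 (SE 0.74) and neurofibromin, NF1, at 2.03 (SE 0.67). The median was -0.38, -0.26 and -0.41. Over all genes tested 7.14%, 17.1% and 31.2% were called lower at these times, and 2.17% higher at 24 h. At 24 h DESeq2 with size factors from total reads called 3 lower and only 1 higher. With T>C size factors it called none lower and 4 higher at 24 h, where it called 1434 of all genes lower and 1022 higher.

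Of 24 ERK-responsive genes 14 were tested, and they did not move one way. At 2 h 5 were called lower and none higher, with PHLDA1 at -2.90 (SE 0.32, adjusted p = 8.5e-11) and ELK3 at -2.57 (SE 0.32, adjusted p = 4.0e-09) in edgeR, where 2 were higher at an unadjusted p under 0.05, whereas DESeq2 called 5 lower and 2 higher. At 6 h 4 were lower and 2 higher: the cyclin gene CCND1 was at -6.65 (SE 0.52) and ELK3 at -3.11 (SE 0.31), while ETV5 was at 3.15 (SE 0.97). EGR1, an immediate early transcription factor, had 49 T>C reads in dCBP-30 and none in DMSO at 6 h, at least 14.0-fold higher with a floor of 3 counts over the group. At 24 h 3 were lower and 5 higher. EGR1 then had 164 T>C reads against none (at least 45.6-fold higher), and JUN was at 1.11 (SE 0.16). CCND1 had 2 T>C reads against 878, a 526-fold ratio with a 95% counting interval of 145 to 4351, and PHLDA1 was at -1.99 (SE 0.28). Of all genes tested 7.14%, 17.1% and 31.2% were called lower at the 3 times and 1.66%, 2.36% and 2.17% higher. The list's median was 0.15, -0.61 and 0.10.

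**Figure D5:**
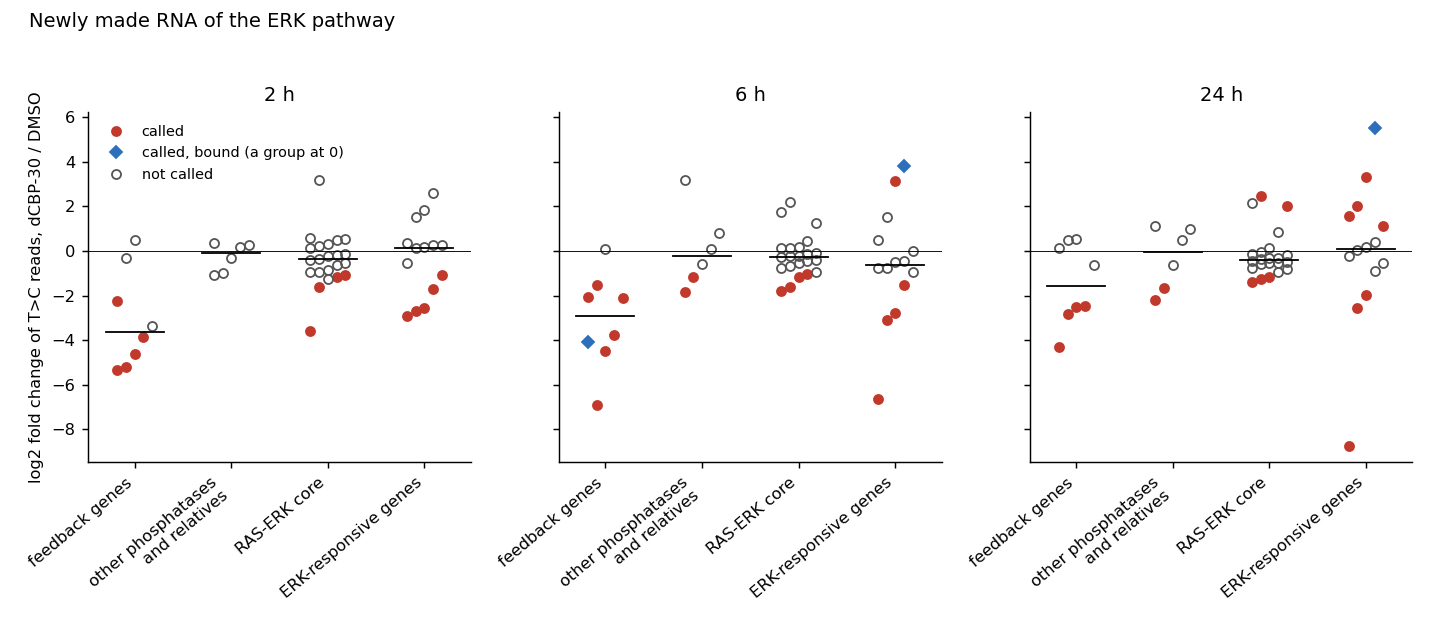
Log2 T>C difference between dCBP-30 and DMSO at 2, 6 and 24 h for each tested gene of the feedback set and of the 3 pathway lists (filled where called, open where not; diamonds mark bounds with a group at 0), with the list median (line). The feedback genes have medians of -3.62, -2.93 and -1.56, and the ERK-responsive genes have medians of 0.15, -0.61 and 0.10.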

How the data were processed

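SLAM-seq was run on MM1.S cells in 6 groups of 3 libraries and on 2 libraries without 4sU. The authors trimmed reads with Trim Galore, mapped them to hg38 and counted them with Slamdunk; they deposited, per 3′ UTR transcript, whole-number counts of all reads and of T>C reads, with no normalization. A spike-in of RNA from Drosophila cells given 4sU was not used here. Of 97466 transcripts 89088 (91.4%) matched GENCODE release 44, giving 19617 genes. Libraries were scaled by total reads times TMM factors, so RPM is relative to the bulk of genes in total reads and not to all RNA. At 24 h the factors were 1.29 to 1.32 in dCBP-30 and 0.893 to 0.934 in DMSO. For the 2 libraries without 4sU the factors came from a separate fit over all 20 libraries. T>C and total counts were tested with edgeR 4.0.16 (robust quasi-likelihood, filterByExpr) in R 4.3.3 over all 18 labelled libraries, with Benjamini-Hochberg adjustment over all tested genes; the share was tested on T>C and unconverted counts with library terms (at least 10 T>C reads). SE is the log2 difference over the square root of F. DESeq2 1.42.0 was an alternative. The fits were tested on simulated data. Named list genes were the 2 called genes of smallest adjusted p per list, direction and time, and the 3 genes most like each member by r. Some results that this rule names are not reported here. Members and lists were chosen with earlier results of these data known. The methods give triplicate samples in multi-well plates without saying whether these were independent cultures, so p-values measure only the spread between these libraries, which may be technical. Intervals and floors cover counting error only, and reads are not counted by molecular identifiers.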

Additional observations from a re-analysis of the deposited data

Results flagged for a closer look

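The difference between dCBP-30 and DMSO in T>C reads changed with time in 8 cases, each by an interaction contrast in edgeR over all 18 labelled libraries. From 2 to 6 h DUSP2 moved by -4.23 (SE 0.40, adjusted p = 5.0e-12) on the log2 scale and SPRED2 by 2.54 (SE 0.77, adjusted p = 0.027). From 2 to 24 h DUSP2 moved by -2.95 (SE 0.38, adjusted p = 9.2e-09). Over the same interval the difference moved towards or past 0 for 5 genes in edgeR: DUSP4 by 2.70 (SE 0.46, adjusted p = 4.6e-06), DUSP5 by 2.50 (SE 0.53, adjusted p = 0.0031), DUSP6 by 2.79 (SE 0.44, adjusted p = 1.1e-06), SPRED1 by 3.22 (SE 0.57, adjusted p = 9.6e-06) and SPRED2 by 4.73 (SE 0.74, adjusted p = 8.5e-07). The 2 h libraries enter every one of these values.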

How the results depend on the processing

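The counts of called genes in T>C reads, total reads and the share were within 1.5 times their value in 98 of 102 results of other settings. The same held in 106 of 108 results that left out 1 library of the time point in question. The number higher in T>C reads at 24 h rose from 0 to 2 (DUSP1 and DUSP6) when scaled by T>C reads (1.15 and 1.18), without TMM factors (1.02 and 1.07) and in DESeq2 with T>C size factors (1.25 and 1.28). The median of all genes at 24 h was -0.04, -0.16 and 0.06 in these fits, against -0.69, and without TMM factors that of total reads was 0.58 against 0.05. With reads summed over transcripts 1 gene was higher in total reads at 24 h, DUSP6 being at 0.98, and leaving out 1 library gave 1 to 2 (1 without DMSO replicate 1). Genes called lower in the share at 24 h numbered 2 to 4 (2 without DMSO replicate 3). SPRED1 in T>C reads at 24 h turned to 0.087 in DESeq2 with T>C size factors, and SPRED2 to -0.039 with summed reads; neither was called. Leaving out 1 library turned uncalled values of DUSP1: in T>C reads they ran from -0.69 to 0.11 at 2 h and -0.13 to 0.37 at 6 h, in total reads from -0.69 to 0.10 and -0.14 to 0.34, and in the share from -0.45 to 1.77 and -0.089 to 1.54. The share at 6 h ran from -0.25 to 0.26 for DUSP5 and from -0.95 to 0.37 for DUSP2. Total DUSP6 at 6 h missed 2-fold without TMM factors (-0.92), and total SPRED2 at 24 h passed it (1.38). Total SPRY1 at 24 h was called lower without dCBP-30 replicate 1 (-2.93). Replicate numbers did not pair the libraries (correlations of -0.051 to 0.016, 0 of 9 over 0.1); with the replicate number as a block, 5, 7 and 4 genes were lower in T>C reads, 5, 7 and 3 in total reads, and 2 higher in total reads at 24 h, as without it. Depth limits SPRY1, SPRY2 and SPRY4, which had 255, 99 and 47 reads over 20 libraries.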

Other observations

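The 2 libraries without 4sU held DUSP6 at 28.9 and 29.2 RPM in total reads, above all 9 DMSO libraries with 4sU, which ran from 8.36 to 23.2 RPM. DUSP1 in the same 2 libraries was at 4.08 and 4.02 RPM, inside the range of the labelled DMSO libraries. The labels give the libraries without 4sU neither time nor dose, so these values were not tested against a group.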
